A study of Mus musculus with 6 samples.

Results

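Collagen chains are the polypeptides that wind in threes into collagen, the main structural protein of connective tissue. The members were every gene whose symbol has the form Col, a number, a and a number, except Col17a1, and 43 of the 24067 genes in the count table met that rule. Messenger RNA was sequenced from 6 mouse tongues that carried tumours, 3 labelled wild type (WT) and 3 labelled HuR knock-out (KO). All animals were C57BL/6 and about 34 weeks old, and all had been given the carcinogen 4NQO for 16 weeks and then left for 12 weeks, so no tongue without carcinogen entered the comparison. HuR is an RNA-binding protein encoded by Elavl1. The sources used here give no driver, cell type or time for the deletion, and no count of animals behind each library. P-values therefore measure the spread between these libraries, and whether each came from a separate animal is not given.

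Each collagen chain carries long repeats of glycine and other residues, which let 3 chains form a triple helix. Chains are hydroxylated, glycosylated and assembled in the endoplasmic reticulum, secreted, trimmed at their ends and cross-linked outside the cell. The fibrillar collagens make the banded fibrils of the lamina propria and of the sheaths around tongue muscle, collagen IV makes the sheet-like network of basement membranes under epithelium and around muscle fibres and vessels, and collagen VI makes beaded filaments between them. The remaining collagens sit on fibril surfaces, anchor epithelium, span membranes or form other networks.

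The libraries held between 29543352 and 51520707 gene counts, so that 1 CPM (counts scaled to a common library size with edgeR's TMM factors) stood for 25.6 to 53.0 counts. Elavl1 had no lower level under the KO label, at 59.3 to 78.4 CPM against 47.9 to 61.7 CPM in those labelled WT (log2 0.29, SE 0.15, edgeR quasi-likelihood adjusted p = 0.180), so the groups are called by their labels throughout. The 20 skeletal muscle genes took 5.61% ± 0.946 (SD, n = 3) of all counts under the KO label and 10.8% ± 2.24 under the WT label, and 52 keratin genes took 5.72% ± 0.859 and 2.74% ± 0.893. Xist reached 1271 CPM in KO replicate 2 and 1104 CPM in KO replicate 3 and lay between 0.625 and 2.5 CPM in the other 4 libraries. The labels give no sex, so its balance between the groups could not be checked. Beyond the fits with a covariate given further on, the part of these differences in the collagen results was not tested.

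Most collagen genes stood lower in the tongues labelled KO, and few of them passed the test. Of 43 genes, 41 passed the filter on low counts, and Col10a1 and Col9a1, which mark cartilage, did not, with at most 7 and 6 counts in a library. Among the 41, edgeR's quasi-likelihood test, Benjamini-Hochberg adjusted over 15903 genes, called 7 lower, 17.1% of the 41 (7.43% of all genes tested were called lower), and 1 higher, 2.44% (4.81% of all genes). The 7 were Col1a2, Col24a1, Col6a1, Col6a2, Col6a3, Col14a1 and Col20a1, and the 1 was Col18a1. The median log2 fold change of the 41 was -0.49, with 26 below 0 and 15 above, beside a median of 0.02 over all genes tested, 48.7% of which were below 0. At an unadjusted p under 0.05 the same test gave 20 lower collagens (20.3% of all genes) and 4 higher (18.2%). In 16 collagens every library labelled KO lay below every library labelled WT (22.1% of all genes), and in 6 every one lay above (22.0%).

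The number of calls, among collagens and over all genes, changed when a single library was left out. With KO replicate 1, 2 or 3, or WT replicate 2 or 3, left out, edgeR called 0 collagens lower and 0 higher, with smallest adjusted p-values from 0.0607 to 0.134 and 15 to 20 lower and 2 to 4 higher collagens at an unadjusted p under 0.05. The share of all genes at that unadjusted threshold is not given for these fits, so the unadjusted counts have no background beside them. Calls over all genes dropped in the same fits, from 1181 lower and 765 higher to 6 and 4, 0 and 0, and 3 and 49 without KO replicates 1, 2 and 3, and to 1 and 0, and 437 and 295 without WT replicates 2 and 3. Over the 6 omissions log2 fold changes moved to differing extents. Col24a1 ranged from -1.18 to -0.83, Col4a1 from -1.13 to -0.54 and Col7a1 from 0.48 to 1.11. The fibrillar median ranged from -0.54 to -0.36, the basement membrane median from -0.94 to -0.56 and the beaded filament median from -0.72 to -0.58. The median of the other class changed sign, from -0.26 to 0.09, as did Col4a6, from -0.19 to 0.47. Without WT replicate 1 edgeR called 20 lower (18.1% of all genes) and 4 higher (17.9%), and the 8 genes called with all libraries were among these 24. WT replicate 1 was the lowest library labelled WT in all 16 collagens whose groups did not overlap and that were lower in KO, and the highest in 5 of the 6 that were higher. Over all genes the same library held those places in 83.7% of 3511 and 80.4% of 3504 genes. DESeq2 on the same counts called 18 lower (15.6% of all genes) and 3 higher (12.1%). In the authors' deposited table, 38 collagens had an adjusted p, and it was under 0.05 for 19 lower in KO (16.3% of all genes with one) and 3 higher (12.4%).

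**Figure D1:**
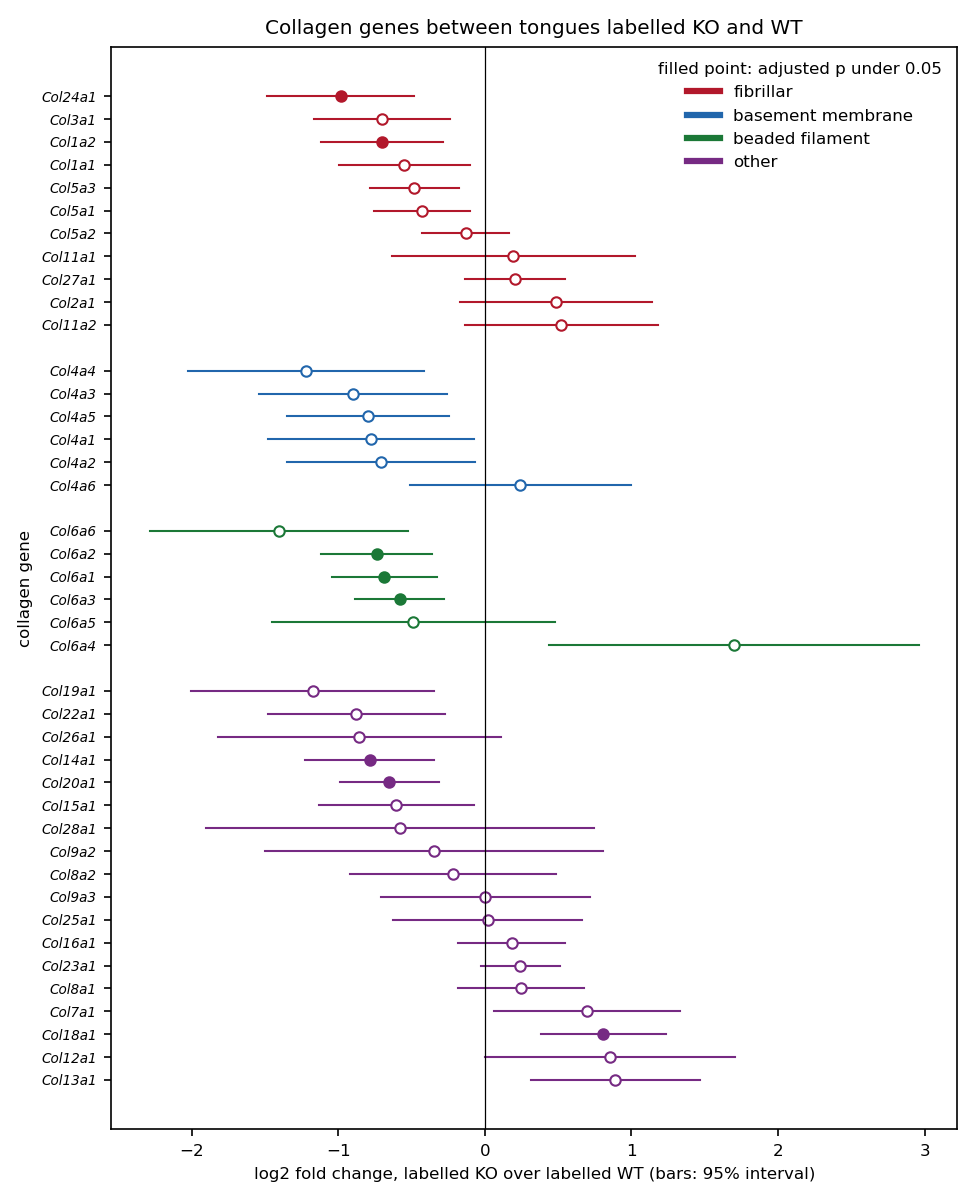
Log2 fold change of 41 collagen genes, labelled KO over labelled WT, on the horizontal axis, with edgeR 95% intervals as bars and genes grouped by class on the vertical axis. Filled points mark the 8 genes with an adjusted p under 0.05; 7 of them lie left of 0 and Col18a1 lies right of it.

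Of the 11 fibrillar collagens, all were tested, 2 fell (7.43% of all genes), 0 rose (4.81%) and 9 did not pass. Their median log2 fold change was -0.43. Col1a2 encodes the second chain of collagen I, the commonest collagen of skin and mucosa, and lies on chromosome 6 at 4505618 to 4541543 (GRCm38). Its level was 173, 141 and 114 CPM in KO replicates 1 to 3 and 203, 250 and 242 CPM in WT replicates 1 to 3. No library labelled KO reached the lowest one labelled WT, and KO replicate 1 came nearest. Col1a2 fell by 0.70 on the log2 scale (SE 0.18, 95% interval -1.12 to -0.29, edgeR adjusted p = 0.0461).

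Col24a1, a minor fibrillar collagen known mostly from bone and cornea (chromosome 3, 145292472 to 145552013), stood far lower, at 8.87, 12.1 and 8.09 CPM in KO and 15, 19.5 and 23.1 CPM in WT. The groups did not overlap, and Col24a1 fell by 0.98 on the log2 scale (SE 0.22, edgeR adjusted p = 0.0371). Col3a1, the single chain of collagen III and first of all collagen genes per kb of transcript, had 301, 230 and 191 CPM in KO and 338, 416 and 422 CPM in WT. Its groups did not overlap either, but its log2 fold change of -0.70 (SE 0.20) had an edgeR adjusted p of 0.0548 and did not pass.

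Col1a1, the partner of Col1a2, overlapped between groups at 129, 86.6 and 83.2 CPM in KO and 128, 143 and 167 CPM in WT, with a log2 fold change of -0.55 (SE 0.19, edgeR adjusted p = 0.0832). KO replicate 1 was the library that stood among the WT values. The 3 collagen V genes, whose chains start and limit the width of collagen I fibrils, had log2 fold changes of -0.48 for Col5a3, -0.43 for Col5a1 and -0.13 for Col5a2. None passed, and their 95% intervals overlapped. The 4 other fibrillar genes had log2 fold changes above 0 that did not pass, from 0.19 for Col11a1 to 0.52 for Col11a2. Col2a1, the collagen of cartilage, and Col11a1 were near the detection limit, at no more than 0.698 CPM in any library.

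The promoter of Col1a2 is shown because this was the most abundant of the fibrillar genes that passed. It is 250 bases before and 50 after the RefSeq start (GRCm38.p6, chr6:4505368-4505667, plus strand), 5′ to 3′, with CCAAT or ATTGG and GGGCGG or CCGCCC in capitals.
Col1a2: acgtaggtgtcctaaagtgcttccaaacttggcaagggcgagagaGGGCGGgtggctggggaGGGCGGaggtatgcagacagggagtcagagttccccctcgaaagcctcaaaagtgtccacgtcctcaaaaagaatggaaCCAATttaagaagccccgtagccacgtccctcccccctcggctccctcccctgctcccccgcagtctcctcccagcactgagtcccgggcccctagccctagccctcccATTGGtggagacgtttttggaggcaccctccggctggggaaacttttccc
It held 2 CCAAT boxes and 2 GC boxes. RefSeq windows were found for 34 of the 43 genes (37 windows), and each was searched on both strands for 4 motifs. CCAAT stood in 12 of the 37 collagen windows and in 37.4% of 32851 windows of all genes, the GC box GGGCGG in 23 and 35.7%, the TATA box TATAAA in 4 and 13.6%, and the AP-1 motif TGANTCA in 1 and 7.81%. A match is a run of letters and was not tested as a binding site.

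The 6 basement membrane collagens form 3 head-to-head gene pairs. Of the 6, 0 fell (7.43% of all genes) and 0 rose (4.81%). Even so, 5 lay below 0, and the class had the lowest median of the 4 classes, -0.79. Col4a1 and Col4a2 make the common network of all basement membranes. Col4a1 had 181, 89.6 and 109 CPM in KO and 154, 213 and 284 CPM in WT. KO replicate 1 lay above WT replicate 1, so the groups overlapped, and the log2 fold change of -0.78 (SE 0.30) had an edgeR adjusted p of 0.105. Col4a2 followed library by library, at 130, 70.5 and 89.0 CPM against 112, 152 and 208 CPM (log2 -0.71, SE 0.28, edgeR adjusted p = 0.106).

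The other chains of collagen IV were much less abundant. Col4a3 and Col4a4, known from glomerular and a few other basement membranes, had log2 fold changes of -0.90 and -1.22 (SE 0.28 and 0.35, edgeR adjusted p = 0.0644 and 0.0548). Col4a4 ran from 1.17 to 1.80 CPM in KO and from 1.98 to 4.53 CPM in WT, without overlap and with the widest spread in WT. Col4a5 was at -0.80 (edgeR adjusted p = 0.0600), again without overlap. Its neighbour Col4a6 was the exception, with 5.71, 11.7 and 5.73 CPM in KO and 5.73, 5.38 and 8.52 CPM in WT. Its log2 fold change was 0.24 (SE 0.33), and without KO replicate 2 it was -0.19.

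The windows of Col4a1 and Col4a2 are shown because both genes start from one stretch of chromosome 8. Their RefSeq starts lie 21 bases apart on opposite strands, and 78 bases of the windows are shared (GRCm38.p6, chr8:11312777-11313076, minus strand, and chr8:11312555-11312854, plus strand). Capitals mark the same 2 motifs.
Col4a1: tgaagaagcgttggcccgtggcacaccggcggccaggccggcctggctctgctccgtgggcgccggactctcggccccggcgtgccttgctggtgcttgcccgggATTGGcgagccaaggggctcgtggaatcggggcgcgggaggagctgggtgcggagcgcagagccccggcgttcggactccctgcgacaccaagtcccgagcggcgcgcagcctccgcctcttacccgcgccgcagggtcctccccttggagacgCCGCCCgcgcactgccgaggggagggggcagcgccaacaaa
Col4a2: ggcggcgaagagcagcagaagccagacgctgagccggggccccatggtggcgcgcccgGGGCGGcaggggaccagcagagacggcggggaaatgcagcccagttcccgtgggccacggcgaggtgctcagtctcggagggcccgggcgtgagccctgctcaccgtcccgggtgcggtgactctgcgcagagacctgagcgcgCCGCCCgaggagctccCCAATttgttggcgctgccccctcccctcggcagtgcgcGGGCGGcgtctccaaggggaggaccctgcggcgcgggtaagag
Col4a1 held 1 CCAAT box and 1 GC box, and Col4a2 held 1 and 3. The gene ranges of this pair overlap by 85 bases and those of Col4a3 and Col4a4 by 114. Since the strand setting of the counting is not given, reads from those stretches cannot be told apart.

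Collagen VI, the beaded filament class, held the most calls for its size. Of its 6 genes, 3 fell (7.43% of all genes), 0 rose (4.81%) and 3 did not pass, with a median of -0.63. Col6a1, Col6a2 and Col6a3 encode the 3 chains of the common heterotrimer, which surrounds muscle fibres, fat cells and fibroblasts. Col6a1 (chromosome 10, 76708792 to 76726044) had 72.7, 69.7 and 64.7 CPM in KO and 88.3, 115 and 131 CPM in WT. Col6a2, its neighbour on chromosome 10 (76595756 to 76623630), had 55.4, 42.3 and 47.7 CPM against 65.1, 90.1 and 87.7 CPM. For Col6a3 (chromosome 1, 90766860 to 90844001) the values were 45.9, 36.2 and 37.7 CPM against 55.2, 61.5 and 62.8 CPM.

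None of these 3 genes overlapped between groups, and WT replicate 1 was the lowest WT library in each. Col6a1 fell by 0.69 (SE 0.16, edgeR adjusted p = 0.0378), Col6a2 by 0.74 (SE 0.16, edgeR adjusted p = 0.0373) and Col6a3 by 0.58 (SE 0.13, edgeR adjusted p = 0.0376) on the log2 scale. The 3 alternative chains were rare. Col6a6 had 0.396 to 0.697 CPM in KO and 0.888 to 1.92 CPM in WT, a log2 fold change of -1.41 (SE 0.38) with an edgeR adjusted p of 0.0505, which did not pass. Col6a5 was at -0.49 and did not pass. Col6a4 went the other way, at 1.70 (SE 0.55, edgeR adjusted p = 0.0693), on 16, 12 and 33 counts in KO and 8, 3 and 3 counts in WT.

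The promoter window of Col6a1 is shown because it was the only collagen window with the AP-1 motif, in capitals here (GRCm38.p6, chr10:76725995-76726294, minus strand).
Col6a1: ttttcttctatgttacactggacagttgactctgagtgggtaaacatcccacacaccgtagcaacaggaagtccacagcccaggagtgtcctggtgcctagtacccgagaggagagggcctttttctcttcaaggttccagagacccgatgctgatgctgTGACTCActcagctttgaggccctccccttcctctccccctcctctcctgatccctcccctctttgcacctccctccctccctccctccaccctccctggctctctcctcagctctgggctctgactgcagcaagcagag
No TATA, CCAAT or GC box letters stood in that window.

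Among the 20 other collagens, 18 were tested, 2 fell (7.43% of all genes), 1 rose (4.81%) and 15 did not pass, with a median of -0.11. Both that fell were fibril-associated collagens, which lie on the surface of collagen I fibrils: of 9 such genes 8 were tested, with a median of -0.50. Col14a1 (chromosome 15, 55307644 to 55520803) had 27.9, 28.1 and 23.9 CPM in KO and 33.2, 52.2 and 52.4 CPM in WT. WT replicate 1 stood much nearer to the KO libraries than to the other WT ones. Col14a1 fell by 0.79 (SE 0.19, edgeR adjusted p = 0.0418). Col20a1 (chromosome 2, 180983323 to 181017545) had 15.1, 17.5 and 13.9 CPM against 21.6, 26.7 and 24.8 CPM, and fell by 0.65 on the log2 scale (SE 0.15, edgeR adjusted p = 0.0376).

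Other fibril-associated genes did not pass. Col19a1 and Col22a1, the second of which is known from muscle-tendon junctions, did not overlap between groups and had log2 fold changes of -1.18 and -0.88 (SE 0.36 and 0.26, edgeR adjusted p = 0.0623 and 0.0596). Col12a1, a relative of Col14a1 that also coats fibrils, had 43.4, 19.9 and 26.2 CPM in KO and 23.0, 17.2 and 9.26 CPM in WT. Its groups overlapped, and the log2 fold change of 0.85 (SE 0.37) had an edgeR adjusted p of 0.130. Col16a1, Col9a2 and Col9a3 lay between -0.35 and 0.18.

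Col18a1 was the only collagen that rose. It encodes a multiplexin of epithelial and vascular basement membranes, whose C-terminal fragment is endostatin, and lies on chromosome 10 at 77052178 to 77166530. Its level was 156, 144 and 144 CPM in KO and 110, 75.3 and 68.0 CPM in WT. The KO libraries lay close together, and the highest WT library was again replicate 1. Col18a1 rose by 0.81 on the log2 scale (SE 0.19, 95% interval 0.38 to 1.24, edgeR adjusted p = 0.0386). Col15a1, the other multiplexin, had a log2 fold change of -0.61 (SE 0.23, edgeR adjusted p = 0.0978), with overlapping groups.

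RefSeq gives Col18a1 a pair of starts, and both windows are shown because the gene went against the family and the counts do not separate its transcripts (GRCm38.p6, minus strand, chr10:77166481-77166780 upstream and chr10:77113656-77113955 downstream).
Col18a1 upstream: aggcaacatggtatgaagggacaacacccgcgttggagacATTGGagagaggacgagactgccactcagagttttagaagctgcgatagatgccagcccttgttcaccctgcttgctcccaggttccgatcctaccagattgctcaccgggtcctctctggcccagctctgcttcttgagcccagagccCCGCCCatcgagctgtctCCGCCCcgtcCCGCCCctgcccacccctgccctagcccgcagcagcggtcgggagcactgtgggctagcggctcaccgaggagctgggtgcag
Col18a1 downstream: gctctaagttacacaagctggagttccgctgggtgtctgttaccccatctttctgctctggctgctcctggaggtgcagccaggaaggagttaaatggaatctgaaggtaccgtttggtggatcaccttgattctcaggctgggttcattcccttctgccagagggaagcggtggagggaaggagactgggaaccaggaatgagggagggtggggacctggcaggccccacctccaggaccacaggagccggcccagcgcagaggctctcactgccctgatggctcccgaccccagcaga
The upstream window held 1 CCAAT box and 3 GC boxes, and the downstream one held none of the 4 motifs. Which start was used in these tongues was not measured.

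Col7a1, the anchoring fibril collagen that ties the epithelial basement membrane to the tissue beneath, had 360, 373 and 391 CPM in KO and 341, 194 and 157 CPM in WT. All libraries labelled KO lay above all labelled WT, but WT replicate 1 was close to them. The log2 fold change of 0.70 (SE 0.27) had an edgeR adjusted p of 0.106 and did not pass. Its window is shown because this gene stood first among collagens outside the fibrillar class per kb of transcript in KO, though not in WT (GRCm38.p6, chr9:108953336-108953635, plus strand).
Col7a1: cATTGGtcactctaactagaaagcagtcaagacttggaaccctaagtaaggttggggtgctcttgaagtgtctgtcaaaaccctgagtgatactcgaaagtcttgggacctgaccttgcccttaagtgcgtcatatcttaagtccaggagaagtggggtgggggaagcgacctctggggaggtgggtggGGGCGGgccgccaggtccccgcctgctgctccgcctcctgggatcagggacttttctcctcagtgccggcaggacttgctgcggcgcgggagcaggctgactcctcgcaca
It held 1 CCAAT box and 1 GC box.

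The 3 transmembrane collagens all lay above 0, and none passed. Col13a1, found at sites of cell adhesion and at the neuromuscular junction, had 6.21, 6.19 and 5.41 CPM in KO and 4.36, 2.83 and 2.38 CPM in WT, without overlap (log2 0.89, SE 0.25, edgeR adjusted p = 0.0526). Col23a1 was at 0.24 and did not overlap between groups, and Col25a1 was at 0.02. The network-forming genes Col8a1 and Col8a2 were at 0.24 and -0.22, and Col26a1 and Col28a1 at -0.86 and -0.58. Col28a1 had 8.36 CPM in WT replicate 3 and between 1.52 and 2.91 CPM in every other library.

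**Figure D2:**
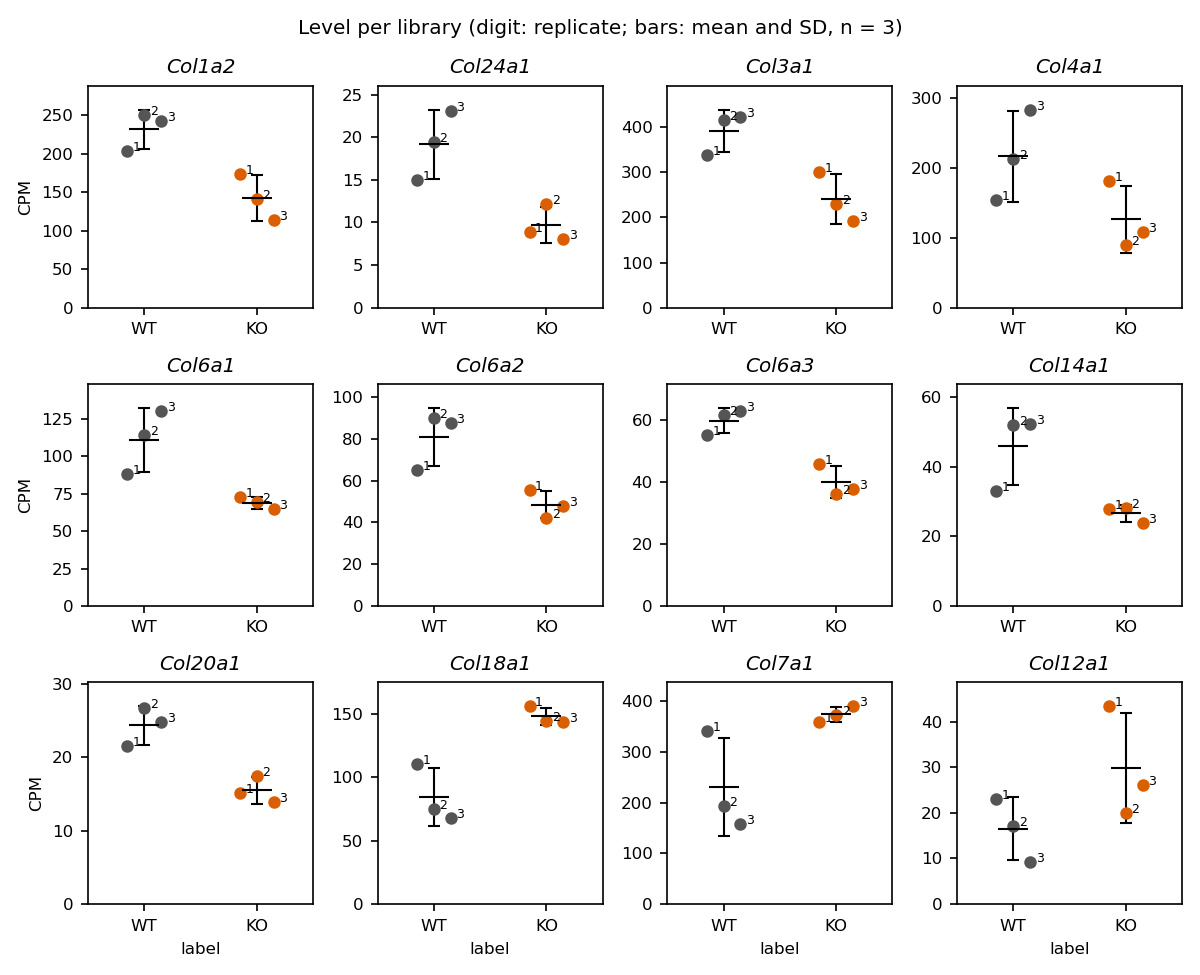
Level in CPM of 12 collagen genes in each library, with replicate digits beside the points and the mean and SD as bars (n = 3). In all 7 genes that fell, WT replicate 1 is the lowest of the WT points, and in Col18a1 and Col7a1 it is the highest.

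Per kb of 1 annotated transcript, the order of the genes also differed between labels. In WT, Col3a1 led with 70.4 ± 8.41 CPM per kb (SD, n = 3), followed by Col1a2 with 43.4 ± 4.72, Col4a1 with 32.8 ± 9.80 and Col6a1 with 27.1 ± 5.2. The mean ± SD ranges of Col1a2 and Col4a1 overlapped, as did those of Col4a1 and Col6a1. The range of Col6a1 also overlapped those of the next 3. These were Col7a1, Col1a1 and Col4a2, at 24.9 ± 10.5, 24.6 ± 3.32 and 24.4 ± 7.46 CPM per kb. In KO, the ranges of Col3a1 with 43.2 ± 9.96 and Col7a1 with 40.5 ± 1.67 CPM per kb overlapped. Col18a1 came next with 30.9 ± 1.46 CPM per kb, and its range overlapped that of Col1a2 at 26.7 ± 5.55. The rank of Col18a1 was 9 in WT. These ranges are spreads over libraries. The genes were read in the same libraries, and their order within each library was not tested. At the low end, Col6a4, Col6a5, Col9a1 and Col10a1 stood under 0.06 CPM per kb in both groups.

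Summed shares of counts lay lower in KO for fibrillar and beaded filament collagens and higher for the other collagens, and no share passed the test. The whole family took 0.223%, 0.191% and 0.175% of counts in KO and 0.218%, 0.214% and 0.210% in WT, with overlapping values (exact permutation p = 0.400, two-sided). KO minus WT was -0.018 percentage points. With the skeletal muscle list left out of the total it was -0.032 (exact permutation p = 0.1, unadjusted). With keratins also left out it was -0.026 (exact permutation p = 0.4, unadjusted). Fibrillar genes took 0.0865%, 0.0712% and 0.0587% in KO and 0.0921%, 0.0991% and 0.0948% in WT. Beaded filament genes took 0.0186%, 0.0162% and 0.0156% against 0.0218%, 0.0251% and 0.0245%. Both classes lay lower in every library labelled KO, while the other collagens lay higher in each, at 0.0827%, 0.0817% and 0.0777% against 0.0725%, 0.0518% and 0.0429%. For these 3 classes the exact permutation p was 0.1, the smallest that 3 against 3 libraries allow, and 0.167 adjusted over 5 shares. Basement membrane genes overlapped, at 0.0267% ± 0.00772 against 0.0389% ± 0.00813 (SD, n = 3, exact permutation p = 0.2, adjusted 0.250).

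Within the collagen counts, the higher share of the other class lay mainly with Col7a1 and Col18a1. Col7a1 took 20.5% ± 3.04 of collagen counts in KO and 10.4% ± 5.16 in WT (SD, n = 3), and Col18a1 8.04% ± 0.552 and 3.78% ± 1.30. The other class without these 2 genes took 13.0% ± 0.420 and 11.8% ± 0.631. Collagens I and III together took 28.6%, 26.1% and 22.9% in KO and 31.9%, 35.3% and 34.3% in WT. These shares add up to a whole, so a higher share of one gene lowers the others, and they are given without a test.

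**Figure D3:**
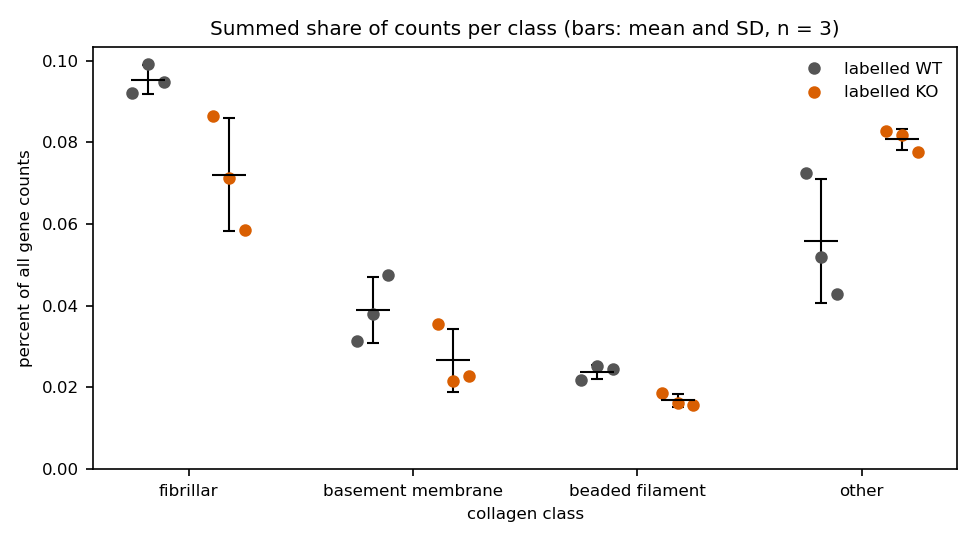
Percent of all gene counts taken by each collagen class, with 1 point per library and bars for the mean and SD (n = 3). The fibrillar and beaded filament points of the libraries labelled KO lie below all those labelled WT, the other collagens lie above them, and the basement membrane points overlap.

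Count ratios of chains that assemble together, or lie in the same fibrils, overlapped between the groups. The Col1a1 to Col1a2 ratio was 0.743, 0.614 and 0.731 in KO and 0.628, 0.571 and 0.688 in WT. Col4a1 to Col4a2 ran from 1.22 to 1.39 in KO and from 1.36 to 1.39 in WT. Col6a1 to Col6a2 ran from 1.31 to 1.65 and from 1.27 to 1.49. All 5 ratios compared overlapped between groups, with log2 differences between -0.09 (Col4a1 to Col4a2) and 0.15 (Col1a1 to Col3a1) and exact permutation p from 0.300 to 0.700 (adjusted 0.500 to 0.700). With 3 libraries a group this does not show that the ratios were equal.

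Differences between class means of log2 CPM were compared over libraries for the 6 pairs of classes. Each mean gave every tested gene equal weight, however few its counts. KO minus WT of the beaded filament mean was -0.38. The log2 fold changes of Col6a1, Col6a2 and Col6a3 were -0.69, -0.74 and -0.58. Those of the rare Col6a4, Col6a5 and Col6a6 were 1.70, -0.49 and -1.41. The largest difference between groups was for basement membrane minus other collagens, 0.69 ± 0.16 in KO and 1.31 ± 0.30 in WT (SD, n = 3) (KO minus WT -0.62). For fibrillar minus basement membrane the value of KO minus WT was 0.45, for beaded filament minus other -0.30 and for fibrillar minus other -0.17. In these 4 pairs the groups did not overlap, with an exact permutation p of 0.1 and 0.150 adjusted over 6 pairs, so none passed. For fibrillar minus beaded filament it was 0.13 (exact permutation p = 0.300, adjusted 0.360), and for basement membrane minus beaded filament -0.32 (exact permutation p = 0.400, adjusted 0.400).

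Proteins that make, trim and bind collagen were read from 5 lists. In each, some genes fell and 0 rose, beside 7.43% and 4.81% of all genes. Other lists also hold 8 of the 15 fibril-associated proteins, 4 of the 19 basement membrane partners and 1 gene each of the cross-linking and receptor lists, and so count those genes again. In the list of folding and modification, 3 of 22 fell, with a median of -0.19: Plod1, a lysyl hydroxylase, Tmem38b, an ion channel of the endoplasmic reticulum, and Fkbp14, a prolyl isomerase. Plod1 stood at 31.1, 28.0 and 35.6 CPM in KO and 46.0, 52.8 and 64.6 CPM in WT (log2 -0.79, SE 0.16, edgeR adjusted p = 0.0338). In the list of trimming and cross-linking, 3 of 14 fell, with a median of -0.45. Pcolce, which speeds removal of the C-terminal propeptide, stood at 33.9, 29.9 and 29.3 CPM against 46.9, 57.2 and 57.5 CPM (log2 -0.80, SE 0.13, edgeR adjusted p = 0.0295), and the others were the cross-linking enzymes Loxl1 and Loxl3.

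Of 15 fibril-associated proteins, 4 fell, with a median of -0.54. Ogn, a small leucine-rich proteoglycan, had 11.0 to 11.6 CPM in KO and 21.4 to 32.3 CPM in WT (log2 -1.16, SE 0.18, edgeR adjusted p = 0.0295), and Fn1, fibronectin, 105 to 173 CPM against 199 to 292 CPM (log2 -0.93, SE 0.23, edgeR adjusted p = 0.0424). Abi3bp and Kera were the other two, and Kera rests on 2 to 10 counts in KO and 9 to 22 in WT. Among receptors and uptake proteins 4 of the 12 tested fell, with a median of -0.23: Itga11, a collagen-binding integrin of fibroblasts, Ddr2, a receptor kinase for fibrillar collagen, Antxr2, which binds collagen VI, and Cd36, a fatty acid and collagen receptor of fat and vessel cells. Of 19 basement membrane partners of collagen IV, 4 fell, with a median of -0.44. Lama2, the laminin chain of muscle basement membrane, had 23.9 to 26.3 CPM in KO and 41.9 to 102 CPM in WT (log2 -1.40, SE 0.29, edgeR adjusted p = 0.0354), and Nid1, Smoc1 and Hspg2 also fell. In that list 7 of 19 lay above 0, 3 of them at an unadjusted p under 0.05, up to 1.68, and none passed the adjusted test.

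Markers of the cells that make collagen, and of other tissue, differed along with these genes. Over all genes tested, 7.43% were called lower and 4.81% higher. Of 19 fibroblast markers other than collagens 9 fell and 0 rose, with a median of -0.47, all 19 below 0 and a summed level of 1989 to 2337 CPM in KO and 2838 to 3838 CPM in WT. Other lists also hold 3 of these markers. Among 20 skeletal muscle genes 8 fell, with a median of -1.05 and a sum of 46038 to 64949 CPM against 81492 to 149231 CPM. Endothelial markers had a median of -0.56 (3 of 12 fell), pericyte and smooth muscle markers -0.86 (3 of 10 fell) and Schwann cell and nerve markers -0.55 (4 of 10 fell). Activated fibroblast markers had a median of 0.24, with 3 of 15 lower and 0 higher, and 6 of the 15 are also in other lists. Suprabasal keratinocyte markers had a median of 1.30, with 4 of 12 higher, and basal ones 0.64, with 0 of 11 called and 3 of the 11 also in other lists.

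Other marker lists were thinly detected or held few calls. Of 14 cartilage markers 7 passed the filter, of which 1 fell (Sox6), and Matn1 was at 0 in every library and Acan at no more than 0.191 CPM on average in either group. The bone and tendon list had 0 of 8 called, with a median of -0.75, the adipocyte list 2 of 7 lower, with a median of -0.50, and the salivary gland list 0 of 3 called, with a median of -0.26 and 2 of its 7 genes at 0 in every library. In whole tongue, fewer cells of a type and less RNA per cell cannot be told apart.

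**Figure D4:**
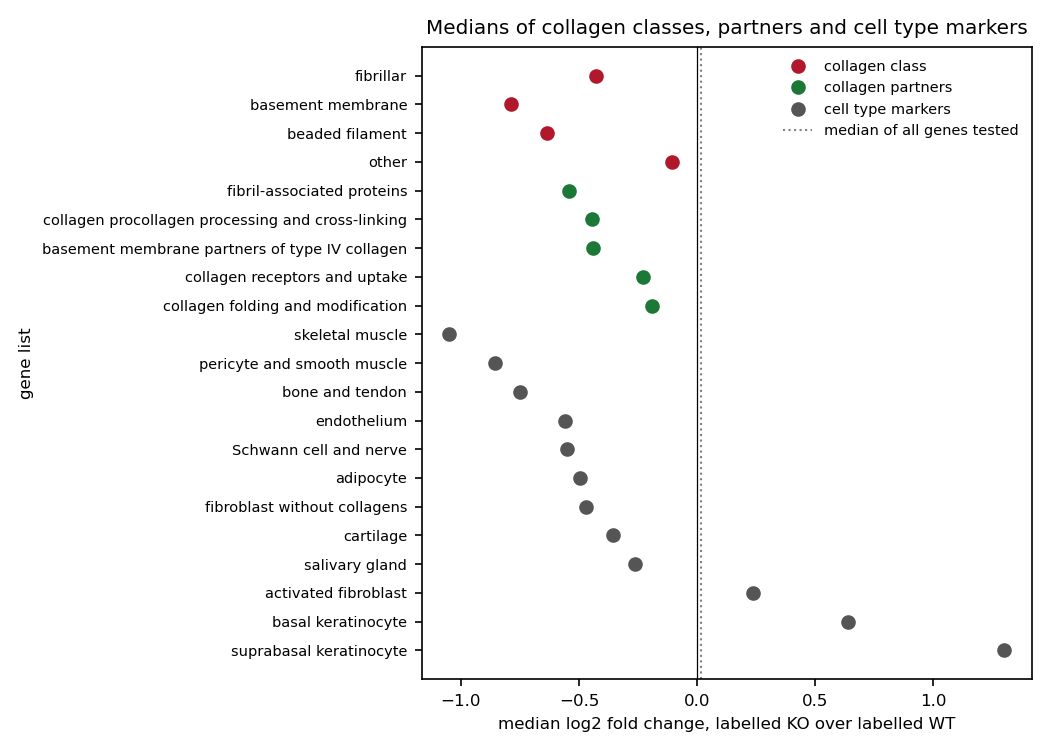
Median log2 fold change, labelled KO over labelled WT, of the 4 collagen classes, 5 lists of collagen partners and 12 lists of cell type markers, with the median of all genes tested as a dotted line. The muscle list lies lowest at -1.05 and the suprabasal keratinocyte list highest at 1.30, and 4 of 4 collagen classes lie below the dotted line.

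The collagen differences were refitted with tissue measures as covariates. For these fits no share of all genes at an unadjusted p under 0.05 is given beside the collagen counts. With the mean of the skeletal muscle list as a covariate, edgeR called 0 collagens and 0 of all genes, with 1 lower collagen at an unadjusted p under 0.05, and the class medians were -0.35 (fibrillar), -0.46 (basement membrane), -0.42 (beaded filament) and 0.07 (other). With the mean of the fibroblast list it also called 0 and 0, with 0 at an unadjusted p under 0.05, and 3 medians turned sign: 0.18, 0.39 and 0.32 for fibrillar, basement membrane and other, beside -0.04 for beaded filament. Col1a2 was then at 0.12 and Col6a1 at 0.06. Col18a1, at 0.81 without a covariate, was at 0.25 with the muscle mean and at 0.05 with the fibroblast mean. The summed level of neither list overlapped between the groups.

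With Xist above 100 CPM as a covariate, a threshold set after its values were seen, edgeR called 0 collagens and 0 of all 15903 genes, with 8 lower and 3 higher collagens at an unadjusted p under 0.05. Here too the share of all genes at the unadjusted threshold is not given. The class medians were then -0.18, -0.65, -0.58 and -0.21 in the same order. KO replicate 1 is the only library labelled KO that shares its Xist level with the WT libraries, so this fit rests on it. The threshold first used, 1 CPM, set WT replicate 2 alone apart from the other 5 libraries and so was no measure of Xist level. With library totals in place of TMM factors edgeR called 0 collagens, at a smallest adjusted p of 0.0523, but 469 lower and 408 higher of all genes. The median of all genes moved from 0.02 to 0.18, and the class medians were -0.25, -0.60, -0.46 and 0.06.

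**Figure D5:**
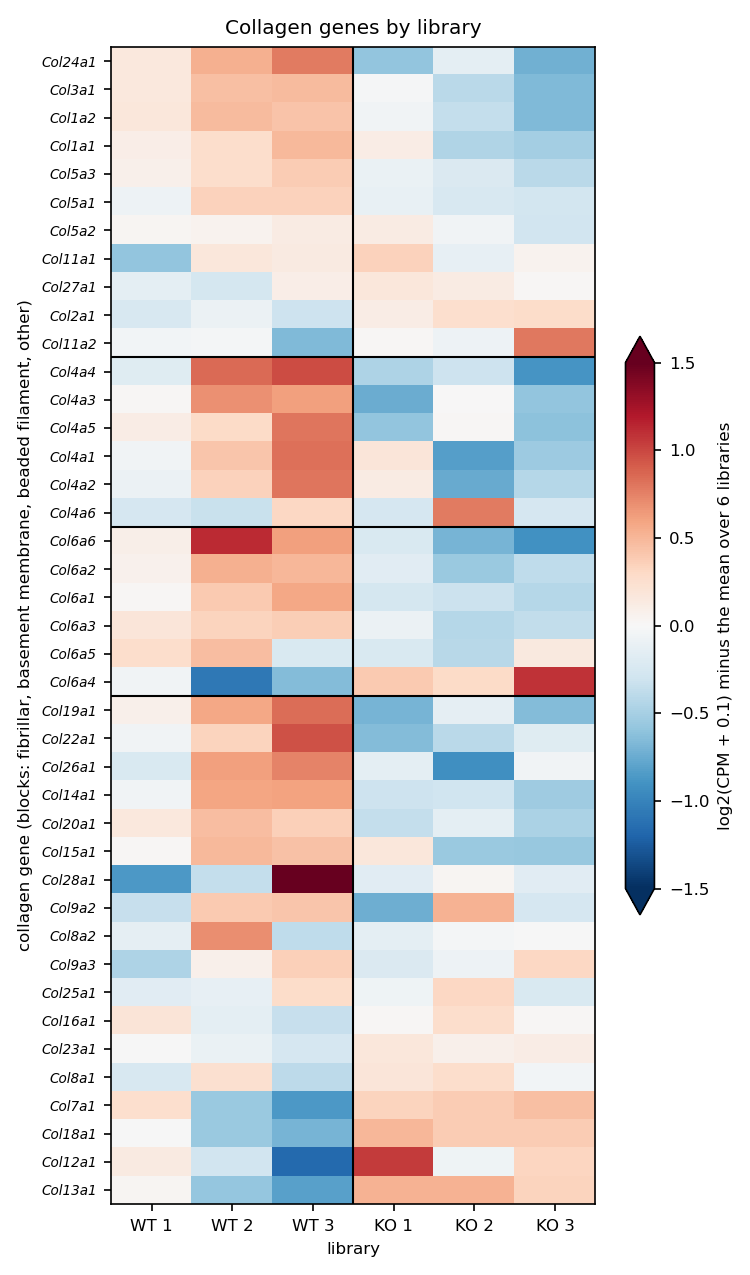
Deviation of log2(CPM + 0.1) from the mean over 6 libraries for 41 collagen genes, in blocks by class, with libraries as columns and colours limited at 1.5 on either side. Rows run from the lowest to the highest log2 fold change within a block, so red stands under WT in the upper rows and under KO in the lower ones; Col28a1 is high in WT replicate 3 alone, at 8.36 CPM.

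HuR is known to bind AU-rich stretches in 3′ untranslated regions, so the pentamer ATTTA was counted in the 3′ untranslated region of 1 GENCODE M21 transcript per gene. It stood in 29 of the 41 tested collagens (70.7%) and in 64.6% of the 14809 tested genes with such a region. Among the 7 collagens that fell, 2 held it, Col24a1 with 4 copies and Col6a3 with 1, and Col1a2, Col6a1, Col6a2, Col14a1 and Col20a1 held 0. Col18a1 held 1 copy in a region of 178 bases. Of the 33 that were not called, 26 held it. Taking the transcript with the longest coding sequence instead gave 1 of 6 among those that fell and left Col18a1 with no annotated region. The letters alone are not a measure of binding.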

How the data were processed

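The authors deposited a table of whole-number counts per gene for all 6 libraries, with their own log2 fold changes and adjusted p-values, which were printed only where the deposited table is named. HTSeq and DESeq2 were used upstream, per the submitters' processing notes, which also list mm10 and hg19 as builds. What each build served for, which aligner and gene models were used and whether counting used strand is not given in the sources used here. Per the labels' protocols, total RNA was made into libraries with a TruSeq kit.

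Samples were grouped by their titles. Genes were kept with edgeR's filterByExpr (minimum count 10, minimum total 15), scaled by TMM and tested with edgeR 4.0.16 (R 4.3.3) by quasi-likelihood over all genes, without a replicate block, and called at an adjusted p under 0.05. Intervals are 95%. Shares, ratios and class means (log2 CPM, prior count 2) were compared with exact permutation tests over libraries. Alternatives used limma 3.58.1, DESeq2 1.42.0, other scalings, no filter, covariates, other totals for the shares and the omission of each library. The edgeR fit with its main settings was tested on simulated counts. Gene positions and promoters are from RefSeq (GRCm38.p6), matched by gene identifier, and transcripts from GENCODE M21.

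Members and lists were chosen with earlier results of these data known. In full were named every called collagen, the 2 with the highest mean CPM and the highest and lowest log2 fold change of each class, and up to 4 genes per partner list by adjusted p; the remaining members are named to account for the family. Motif and ATTTA searches, shares within collagen counts, counts of the nearest library, the Xist thresholds and the rule for 1 transcript per gene (one with a 3′ untranslated region first, then the longest coding sequence) were chosen after seeing the data. Libraries of 29543352 to 51520707 counts give precision limited mainly by their number: the common biological coefficient of variation was 20.7%.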

Additional observations from a re-analysis of the deposited data

How the results depend on the processing

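Alternatives were run gene by gene for 19 collagens, those named by rule. All 19 kept their direction with RLE or upper-quartile scaling, library totals, no filter, DESeq2, limma-voom, the replicate block and the muscle mean as a covariate, except that DESeq2 gave no adjusted p for Col6a4. Sizes moved with the muscle mean. Col18a1 went from 0.81 to 0.25, Col13a1 from 0.89 to 0.19 and Col7a1 from 0.70 to 0.036. The other named genes above 0, Col11a2, Col4a6 and Col6a4, moved away from 0, to 0.83, 0.33 and 1.76. Counts of collagens called lower and higher were 7 and 1 with all libraries, 18 and 3 with DESeq2 and 0 and 0 with library totals alone or with the muscle mean, the fibroblast mean or Xist as a covariate, also at the threshold of 1 CPM first used, which sets only WT replicate 2 apart. They ranged from 0 to 20 and from 0 to 4 with 1 library left out; only the omission of WT replicate 1 gave calls. Lower and higher counts were 9 and 1 with RLE or upper-quartile scaling, and 9 and 2 without the filter or with limma-voom. Calls over all genes were more in both directions with limma-voom, and without the filter, where more genes were tested. With RLE scaling they were slightly fewer in both directions. Upper-quartile scaling gave more lower and fewer higher genes.

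Replicate numbers were not taken as pairs. The correlations of same-numbered libraries were 0.12, -0.16 and 0.19. KO replicate 1 correlated best with WT replicate 2 (0.17) and KO replicate 2 with WT replicate 1 (0.07). KO replicate 3 correlated best with WT replicate 3. With so few libraries these values cannot decide if the libraries were paired. With the replicate block edgeR called 13 lower and 3 higher collagens, among 2112 lower and 1705 higher genes, beside 1181 and 765 without it.

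The median of the other class moved from -0.11 to 0.062 with library totals, 0.013 without the filter, 0.073 with the muscle mean, 0.32 with the fibroblast mean, -0.21 with Xist above 100 CPM and -0.0073 with Xist above 1 CPM, and ranged from -0.26 to 0.092 with 1 library left out. The fibrillar median was -0.25 with library totals, 0.18 with the fibroblast mean and -0.18 with Xist. The basement membrane median was -0.46 with the muscle mean and 0.39 with the fibroblast mean. The beaded filament median was -0.46 with library totals, -0.42 with the muscle mean and -0.036 with the fibroblast mean. The cause of these shifts was not tested.

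With the fibroblast mean, log2 fold changes turned sign for Col1a2 (0.12), Col3a1 (0.17), Col11a2 (-0.091), Col4a1 (0.66), Col4a2 (0.58), Col4a4 (0.74), Col6a1 (0.060), Col6a2 (0.13), Col6a4 (-1.14), Col6a6 (0.68), Col14a1 (0.35) and Col7a1 (-0.62), all with an adjusted p near 1. Col4a6 ranged from -0.19 (without KO replicate 2) to 0.47 (without WT replicate 3) with 1 library left out, and was -0.19 with Xist. The log2 ratio difference of Col6a1 to Col6a2 turned to -0.038 without KO replicate 2, and that of Col6a3 to Col6a1 to -0.0076 without WT replicate 3. Every other share, ratio and class difference kept its sign. Low counts limit Col11a1, Col6a4, Col6a5, Col9a1, Col9a2 and Col10a1, which had 33 counts or fewer in every library.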
